A study of Homo sapiens with 15 samples.

Results

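The cytosolic ribosomal protein genes were followed in 3 established cell lines labelled as acute myeloid leukemia (AML), namely HL-60, MOLM-13 and U937, with and without knockdown of RNF5, an E3 ubiquitin ligase of the endoplasmic reticulum. Members were chosen by gene symbol alone, as RPL or RPS followed by a number and at most one of the letters A, X or L, together with RPLP0, RPLP1, RPLP2, RPSA and RPL36AL, and without RPS27L. This gave 83 symbols, of which 78 were above 0 in at least 1 library (30 of the small and 48 of the large ribosomal subunit), out of 14906 genes above 0 among the 57820 listed. All 78 were above 0 in every library, so none was lost to a filter on low values. The other 5, among them RPS10L, RPL3L and RPL10L, were listed at 0 throughout.

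Bulk RNA-seq was performed on 15 libraries of cells carrying the empty vector pLKO or a short hairpin RNA against RNF5 (shRNF5). Control and knockdown libraries numbered 3 and 2 for MOLM-13, 2 and 2 for U937, and 3 and 3 for HL-60. The labels put the harvest at 7 days after knockdown and the series description at 5 days, and neither names which RNF5 hairpin was sequenced. Nothing states that replicates were separate transductions, so p-values measure only the spread between these libraries, which may be technical.

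RNF5 itself was read at 1223, 1017 and 1020 normalized reads in MOLM-13 pLKO and at 76 and 81 in shRNF5. In U937 it was 648 and 843 against 46 and 74, and in HL-60 it was 506, 689 and 545 against 37, 133 and 43. All 15 libraries therefore matched their label. All 8 myeloid marker genes were above 0 in U937, all but CSF1R in HL-60 and all but CEBPE in MOLM-13. The T cell and erythroid markers were at 0 in all 3 lines. Of 3 B cell markers 0, 2 and 1 were above 0 in MOLM-13, U937 and HL-60, of 3 epithelial markers 1, 0 and 1, and of 3 fibroblast markers 0, 1 and 0, and the largest sum of any of these lists in a library was 234 reads. The summed values of a library ran from 15988450 to 25835131.

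Ribosomal proteins are made in near-equal numbers and assembled on ribosomal RNA in the nucleolus, and their genes are usually expressed together in growing cells. Their mRNAs carry a terminal oligopyrimidine (TOP) tract, a C at the transcription start followed by an unbroken run of pyrimidines, through which mTORC1 and LARP1 control their translation and stability. In blood the set is known from Diamond-Blackfan anaemia, in which 1 copy of a ribosomal protein gene is lost, and from RPS14, which is lost in myelodysplastic syndrome with a deletion of the long arm of chromosome 5. Free RPL5, RPL11 and RPL23 can bind MDM2, the ligase that destroys p53.

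The start sites are shown first because the tract is the feature that the members have in common and that the choice of symbols did not use. Each window below holds 15 bases before and 15 bases from the annotated start of the reference transcript (GENCODE on GRCh37), 5′ to 3′ on the strand of the gene, with capitals for a run of at least 5 C or T bases that begins with a C at the start or within 5 bases of it. The first 4 genes stand near one end of the ordering described further on and the next 4 near the other end, and the last is a paralog of RPL39.

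RPL39: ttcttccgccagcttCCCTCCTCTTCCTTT

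RPS3A: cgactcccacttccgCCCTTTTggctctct

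RPL13A: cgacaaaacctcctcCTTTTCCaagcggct

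RPS14: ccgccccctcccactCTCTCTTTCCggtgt

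RPL23: cttttttcttttttccggcgttcaagatgt

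RPL27: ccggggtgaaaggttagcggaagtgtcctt

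RPL29: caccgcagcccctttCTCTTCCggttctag

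RPS27: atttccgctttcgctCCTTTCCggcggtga

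RPL39L: gcatccggggaaatcgcggtcttagcatcc

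A C at the annotated start followed by at least 4 bases that are each C or T, read on the strand of the gene, was present in 58 of 78 members (74.4%) and in 633 of 12220 other protein-coding genes above 0 (5.18%). When the run was allowed to begin within 5 bases of the start, the shares were 84.6% and 22.1%. RPL39 lies on chrX:118920467-118925593 (minus strand) and its tract filled the whole of the window downstream of the start. RPS3A lies on chr4:152020780-152025794 (plus strand), RPL13A on chr19:49990865-49995565 (plus) and RPS14 on chr5:149822198-149829302 (minus). RPL23, on chr17:37004113-37009974 (minus), and RPL27, on chr17:41150436-41154976 (plus), had no such run at the annotated start, and neither had RPL39L on chr3:186838736-186857284 (minus). RPL29 lies on chr3:52027538-52029911 (minus) and RPS27 on chr1:153963238-153964631 (plus), and both had the run. The window of RPL23 does hold a long run of C and T, but one that begins further upstream and ends at the start, so it is not in capitals and was not counted. These bounds are those of the reference transcript, exons and introns together.

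The members held 8.63% ± 0.80 (SD, n = 3) of the summed normalized reads in MOLM-13 pLKO and 8.27% ± 0.31 (n = 2) in shRNF5. In U937 the share was 4.81% ± 0.51 (n = 2) in pLKO and 3.42% ± 0.35 (n = 2) in shRNF5. In HL-60 it was 7.13% ± 1.22 (n = 3) and 7.42% ± 1.41 (n = 3). Groups overlapped in MOLM-13 and HL-60, whereas both U937 shRNF5 libraries (3.17% and 3.66%) lay below both pLKO libraries (4.44% and 5.17%). The small subunit genes took 36.8% to 39.6% of the member sum in every library. The authors normalized each line separately, so shares are not tested across lines, and reads are relative to the library, so less ribosomal protein mRNA per cell and more of other mRNAs cannot be told apart.

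The 3 lines gave different counts of called members after RNF5 knockdown, and the shares called over all genes differed between lines too. In MOLM-13 no member passed the test (limma, Benjamini-Hochberg adjusted p under 0.1 over all genes tested and an absolute log2 fold change over 0.4). Over all genes of that line, 1.03% rose and 1.01% fell. In U937 the members lay low as a group, with 13 falling (16.7%, beside 8.74% of all genes) and none rising (beside 6.92%). In HL-60 4 members rose (5.13%, beside 13.6%) and 7 fell (8.97%, beside 12.3%) around a median near 0. Of the 4 that rose, 3 had fallen in U937.

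**Figure D1:**
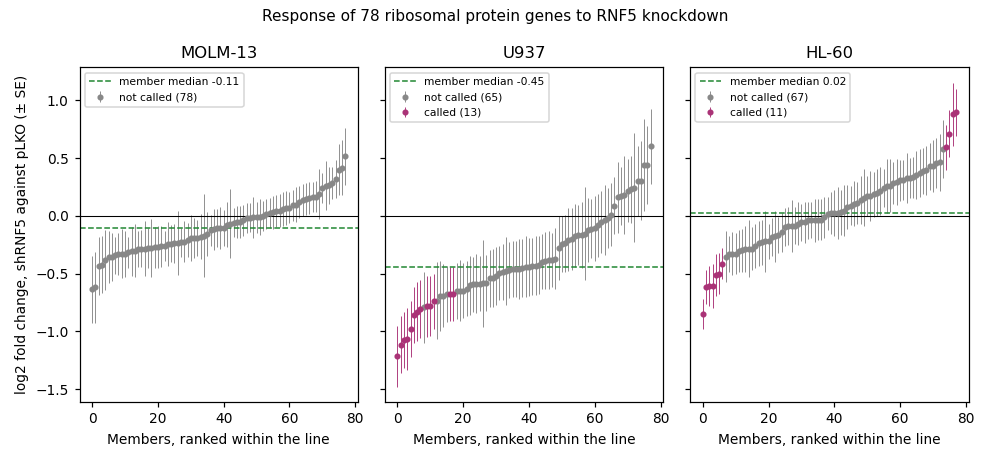
Fitted log2 fold change of each of the 78 members, shRNF5 against pLKO, ranked within each line (x axis), with the standard error as bars and called members in purple. The dashed line is the member median, at -0.11 (MOLM-13), -0.45 (U937) and 0.02 (HL-60).

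In MOLM-13, 0 of 78 members were called, where 1.03% of 13026 genes rose and 1.01% fell. Only 1 of the 78 members had an unadjusted limma p under 0.05, beside 2213 of the 13026 genes. The median log2 fold change of the members was -0.11 against 0.01 over all genes tested, and 67.9% of members against 49.2% of genes had a negative value. Without pLKO replicate 1, a library that stood apart from the other MOLM-13 controls in the order of the members described further on, the median was -0.01 and again 0 members were called. A fit with the replicate number of the labels as a block gave 1 rise and 4 falls. The file names number the shRNF5 libraries of this line 2 and 3 where the labels have 1 and 2, and with those numbers as the block 0 members were called and the median was -0.01.

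In U937, 13 of 78 members (16.7%) fell, beside 8.74% of the 13165 genes tested, and 0 rose, beside 6.92%. The median log2 fold change was -0.45 against 0.00 over all genes, and 65 of 78 members (83.3%) were negative against 49.7% of genes. Small and large subunit genes had the same median of -0.45, with 8 of 30 (26.7%) and 5 of 48 (10.4%) falling. The 13 genes were RPL13, RPL13A, RPL18, RPL21, RPL39, RPS3A, RPS6, RPS14, RPS19, RPS20, RPS21, RPS23 and RPS27A. Each had the pyrimidine run at its start, as did 58 of all 78 members (74.4%). The summed B cell markers were at 120 to 126 in pLKO and 65 to 74 in shRNF5 and those of fibroblasts at 39 to 234 and 15 to 29, and their part in these values was not tested. With 2 libraries a side the count was fragile: it was 0 without pLKO replicate 2, without shRNF5 replicate 1 or without shRNF5 replicate 3, and 6 without pLKO replicate 3, while the median stayed between -0.55 and -0.33. A correction for transcript length moved the median to -0.24 and the calls to 7 falls and 1 rise, and 0 members were called without the mean-variance trend.

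In HL-60, 4 members (5.13%) rose, beside 13.6% of the 12570 genes tested, and 7 (8.97%) fell, beside 12.3%. Both shares were below those over all genes. The median was 0.02 against 0.00, with 40 members positive and 38 negative. RPL39, RPL41, RPS3A and RPS27A rose, and the 7 that fell included RPL10, RPL23, RPL27, RPL29, RPL32 and RPS27. The start run was present in all 4 that rose and in 4 of the 7 that fell, RPL23, RPL27 and RPL32 being those without it. Of all members, 74.4% had it. The summed myeloid markers were at 115958 to 140442 reads in pLKO and at 151414 to 220613 in shRNF5, and their part in these values was not tested. Leaving out shRNF5 replicate 1, 2 or 3 gave 15, 4 and 1 rises and 3, 3 and 9 falls. Leaving out pLKO replicate 1, 2 or 3 gave 2, 9 and 2 rises and 8, 3 and 4 falls.

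RPL39, a small protein of the polypeptide exit tunnel and X-linked, moved most in U937 and HL-60. Its normalized reads in MOLM-13 were 2859, 1755 and 1304 in pLKO and 1182 and 1226 in shRNF5. In U937 they were 1793 and 1528 against 815 and 621. In HL-60 they were 601, 787 and 799 against 1044, 1252 and 1867. The groups did not overlap in any line, with shRNF5 low in MOLM-13 and U937 and high in HL-60. The log2 fold change was -0.64 ± 0.29 (SE, adjusted p = 0.313) for MOLM-13, -1.22 ± 0.26 (adjusted p = 0.0296) for U937 and 0.90 ± 0.20 (adjusted p = 0.0140) for HL-60, all by limma.

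RPS3A, a protein of the small subunit, was read at 6925 and 7160 in U937 pLKO and at 3985 and 3189 in shRNF5. In HL-60 its reads were 8574, 11361 and 11883 in pLKO and 13835, 15594 and 23629 in shRNF5. Both lines separated by group, in opposite directions. The log2 fold change was -0.98 ± 0.24 (limma adjusted p = 0.0421) in U937 and 0.71 ± 0.21 (adjusted p = 0.0344) in HL-60. In MOLM-13 the reads were 23972, 17662 and 12737 against 14231 and 12021, which overlapped.

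RPS27A, which is made as a fusion with ubiquitin, had 18168 and 19107 reads in U937 pLKO and 11511 and 9563 in shRNF5. In HL-60 it had 15361, 19855 and 18548 against 21765, 24928 and 35816. Again neither line overlapped, and the signs were opposite, with a log2 fold change of -0.83 ± 0.26 (limma adjusted p = 0.0753) in U937 and 0.59 ± 0.19 (adjusted p = 0.0535) in HL-60.

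RPL41, the smallest ribosomal protein, had 1226, 1205 and 965 reads in HL-60 pLKO and 1310, 1996 and 3403 in shRNF5, a log2 fold change of 0.88 ± 0.27 (limma adjusted p = 0.0453). The replicates of HL-60 shRNF5 were far apart, the highest being well above the lowest. In U937 the reads were 1897 and 1178 against 1044 and 715 and the difference did not pass (log2 fold change -0.79, adjusted p = 0.130).

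RPS14 was read at 15632 and 14320 in U937 pLKO and at 7278 and 6547 in shRNF5, so the libraries of a group were close. Its log2 fold change was -1.12 ± 0.25 (limma adjusted p = 0.0318). In HL-60 the reads were 22897, 33117 and 29560 against 28665, 35606 and 47548, which overlapped, and the value of 0.37 did not pass. In MOLM-13 they were 39848, 26565 and 23360 against 24308 and 21342, and again overlapped.

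RPL13A had 33385 and 31508 reads in U937 pLKO and 16378 and 14627 in shRNF5 (log2 fold change -1.07 ± 0.27, limma adjusted p = 0.0433). RPL13A is known for leaving the ribosome to silence inflammatory transcripts in myeloid cells. In HL-60 its reads were 35134, 56831 and 46084 against 50814, 64132 and 94716, and the value of 0.58 did not pass (adjusted p = 0.124).

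RPS20, which lies on chromosome 8, had 13776 and 11750 reads in U937 pLKO and 6181 and 5886 in shRNF5 (log2 fold change -1.08 ± 0.24, limma adjusted p = 0.0339). In HL-60 it had 4180, 5611 and 4717 against 4813, 5868 and 7519, overlapping. RPS19, the gene most often affected in Diamond-Blackfan anaemia, fell in U937 from 18956 and 20152 to 12542 and 10285 (-0.78 ± 0.26, adjusted p = 0.0885). RPS6, the substrate of S6 kinase, fell there from 26282 and 30296 to 15894 and 16902 (-0.78 ± 0.27, adjusted p = 0.0944). Both of these lay close to the threshold, and neither passed in MOLM-13 or HL-60.

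The other end of the HL-60 response was led by RPL23, one of the proteins that bind MDM2. Its reads in HL-60 were 15212, 17754 and 14344 in pLKO and 8282, 9231 and 8627 in shRNF5, with tight groups that did not overlap. The log2 fold change of -0.85 ± 0.13 (limma adjusted p = 0.00306) had the smallest adjusted p of any member in any line. In MOLM-13 the reads were 11223, 17520 and 21206 against 23941 and 22090, and in U937 2583 and 5448 against 3540 and 7295, so in both lines the controls differed from each other by more than the groups did.

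RPL27, RPL29 and RPS27 behaved likewise. RPL27, mutated in some Diamond-Blackfan families, had 10276, 13741 and 11909 reads in HL-60 pLKO and 7243, 7244 and 8896 in shRNF5 (-0.62 ± 0.15, limma adjusted p = 0.0172). RPL29 had 8088, 13106 and 9422 against 5930, 6872 and 6882 (-0.61 ± 0.17, adjusted p = 0.0324). RPS27 had 6548, 10305 and 7141 against 4788, 4471 and 6414 (-0.60 ± 0.19, adjusted p = 0.0473). None of the 3 overlapped between groups. In U937 RPS27 was the highest member, at 2322 and 3792 reads in pLKO and 3435 and 5913 in shRNF5, but the groups overlapped and the value of 0.60 ± 0.32 did not pass (adjusted p = 0.257).

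RPL10, an X-linked protein of the large subunit next to the catalytic centre and mutated in T cell leukemia, had 9752, 12233 and 11138 reads in HL-60 pLKO and 7923, 7703 and 9188 in shRNF5 (-0.41 ± 0.14, limma adjusted p = 0.0535). In U937 it had 6282 and 7578 against 7088 and 8546, and in MOLM-13 15154, 19481 and 19807 against 22878 and 20463. It passed in neither of those lines.

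The members of the MDM2-binding group other than RPL23 did not pass in any line. The log2 fold change of RPL11 was 0.29 for MOLM-13, -0.04 for U937 and -0.17 for HL-60. That of RPL5 was 0.02, -0.44 and -0.09, with adjusted p-values of 0.941, 0.308 and 0.729 (limma). In U937 the RPL5 reads were 13635 and 17025 in pLKO and 10146 and 12408 in shRNF5, which did not overlap. Of 17 measured genes of Diamond-Blackfan anaemia, 2 fell in U937 and 2 in HL-60, at medians of -0.39 and -0.09, and 0 were called in MOLM-13. The share of 11.8% lay beside 8.74% of all genes falling in U937 and 12.3% in HL-60, so it was near that over all genes in HL-60.

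RPLP0, the base of the ribosomal stalk and a common reference gene, was at 56531, 55145 and 57967 reads in MOLM-13 pLKO and 66616 and 67302 in shRNF5. In U937 it was at 14179 and 14087 against 9611 and 11143, and in HL-60 at 21708, 30495 and 26207 against 23393, 27621 and 33777. The groups did not overlap in MOLM-13 or U937, in opposite directions, yet no line passed the test (log2 fold changes of 0.24, -0.45 and 0.11). RPL22, a large subunit protein lost in some leukemias, had 3290 and 3785 reads in U937 pLKO and 2187 and 2509 in shRNF5 and missed the threshold (-0.59, limma adjusted p = 0.141).

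The measured paralogs passed in no line. RPL39L, the paralog of RPL39 without the start tract, was read at 88 and 225 in U937 pLKO and at 140 and 199 in shRNF5, where RPL39 fell. In HL-60 it was read at 47, 60 and 52 against 44, 36 and 58, where RPL39 rose. RPL36AL, a retroposed copy of RPL36A, had 1554 and 2185 against 1818 and 1605 in U937, which overlapped. No test of a paralog against its partner was run. RPL36A, RPL17 and RPS10 overlap read-through transcripts, and many members have processed pseudogenes, which makes their levels uncertain where reads could be shared between copies.

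The response of a member was compared between lines by its own test, the difference of the shRNF5 effect in one fit over all libraries (adjusted p under 0.1 over 11072 genes). Between U937 and HL-60, 27 members (34.6%) were lower in U937, beside 18.1% of all genes, and 6 (7.69%) were higher, beside 19.1%. RPL39 differed most, by -2.11 ± 0.40 (SE, limma adjusted p = 0.00209), followed by RPS3A at -1.69 ± 0.36 (adjusted p = 0.00390). At the other end stood RPL23, at 1.29 ± 0.45 (adjusted p = 0.0416). Leaving out U937 shRNF5 replicate 3 brought the counts to 20 lower and 0 higher, leaving out U937 pLKO replicate 2 to 23 and 0, and leaving out U937 pLKO replicate 3 to 22 and 11.

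Between MOLM-13 and HL-60 only 6 members differed. RPL39, RPL41, RPS3A and RPS27A were lower in MOLM-13 (5.13% of members, beside 5.09% of genes) and RPL23 and RPL10 were higher (2.56%, beside 3.72%). Between MOLM-13 and U937, 1 member was higher in MOLM-13 (beside 6.95% of genes) and 0 were lower (beside 8.48%). An unadjusted limma p under 0.05 was found for 4 of 78 members, beside 2937 of 11072 genes. The 1 member that passed was RPS20, at a difference of 0.84 ± 0.28 (limma adjusted p = 0.0764). These shares were near or below those over all genes. The count between MOLM-13 and HL-60 was 0 without either MOLM-13 shRNF5 library, HL-60 pLKO 1 or HL-60 shRNF5 3, and 13 with a correction for transcript length, of which 12 were higher in MOLM-13. The count between MOLM-13 and U937 was 6 without MOLM-13 pLKO 1.

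Within each library the members were spread along one common order. After each member was centred on the mean of its line and each library on the mean of its members, the first principal component held 73.6% of the variance, and the second 6.97%. RPL39, RPL41, RPS3A, RPL13A, RPS27A, RPS14, RPS3 and RPS19 lay at one end, and RPL23, RPS27, RPL29, RPL27, RPS15A, RPL32 and RPL35 were among those at the other. These genes were picked from the same values, so the order is a description.

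**Figure D2:**
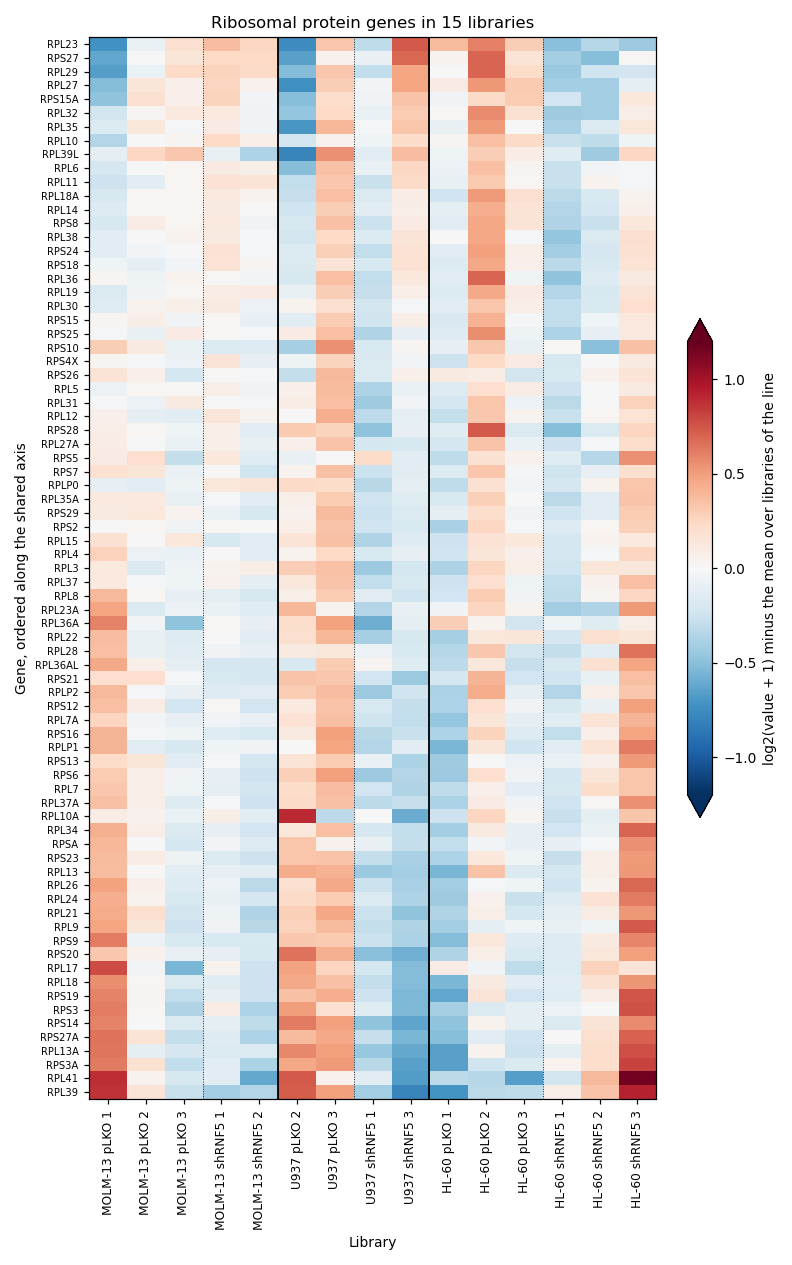
Members (rows, ordered by their weight on the common axis, 1 of them not shown) in each of the 15 libraries (columns), as log2(value + 1) minus the mean over the libraries of its line. Top and bottom rows have opposite colours in most libraries, and MOLM-13 pLKO 1, U937 pLKO 2 and HL-60 shRNF5 3 tend to blue at the top and red at the bottom.

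The order separated replicates of the same group as well as groups. The score of a library on it, which is positive when the RPL39 end is high, was 2.97 in MOLM-13 pLKO 1 but 0.11 and -0.97 in pLKO 2 and 3, and -0.97 and -1.14 in shRNF5. In U937 it was 2.90 and 0.26 in pLKO 2 and 3 and -0.40 and -2.76 in shRNF5 1 and 3. In HL-60 it lay from -1.67 to -1.18 in pLKO and from 0.77 to 2.15 in shRNF5. Only in HL-60 was the gap between groups larger than the spread within them.

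**Figure D3:**
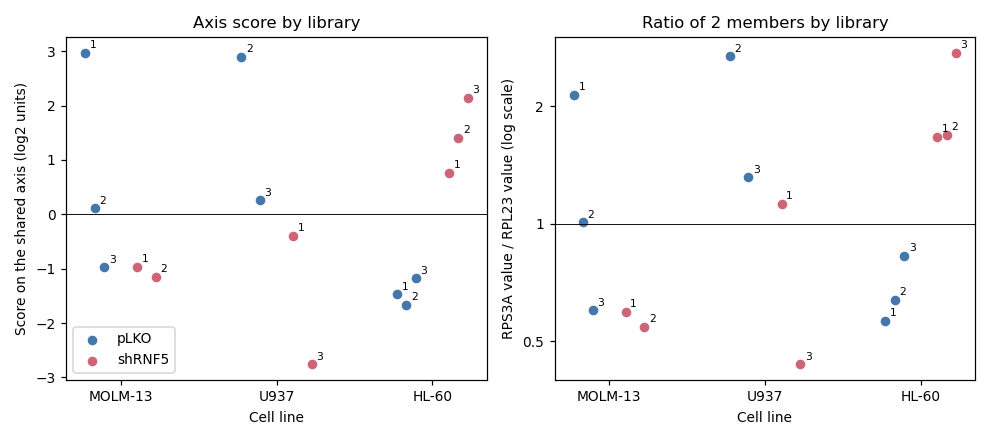
Left, score of each library on the common axis of the 78 members (log2 units), with pLKO in blue and shRNF5 in red and the replicate number beside each point. Right, ratio of RPS3A to RPL23 reads in the same libraries on a log scale, which runs from 0.44 in U937 shRNF5 3 to 2.74 in HL-60 shRNF5 3.

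RPS3A and RPL23 were taken from opposite ends of this order, so their ratio restates it in reads and adds no support to it. RPS3A over RPL23 was 2.14, 1.01 and 0.60 in MOLM-13 pLKO and 0.59 and 0.54 in shRNF5. In U937 it was 2.68 and 1.31 in pLKO and 1.13 and 0.44 in shRNF5. In HL-60 it was 0.56, 0.64 and 0.83 in pLKO and 1.67, 1.69 and 2.74 in shRNF5. MOLM-13 pLKO 3 lay close to both shRNF5 libraries of its line, the nearest U937 libraries of the 2 groups stood at 1.31 and 1.13, and those of HL-60 at 0.83 and 1.67.

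Across the 78 members, the HL-60 knockdown log2 fold change had a Pearson r of 0.87 (Spearman 0.87) with the difference between MOLM-13 pLKO 1 and the mean of pLKO 2 and 3, a contrast with no knockdown in it and no library in common. Over 10994 other genes the r was 0.24. With the difference between the replicates of U937 shRNF5 (1 minus 3) the r was 0.84, against 0.02 over the other genes. For U937 pLKO (2 minus 3) the r was lower, at 0.63, against 0.11 over the other genes. Between the HL-60 and U937 knockdown values it was -0.83, against -0.12. Members are not replicates, and all points of a contrast share its libraries, so these are descriptions.

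**Figure D4:**
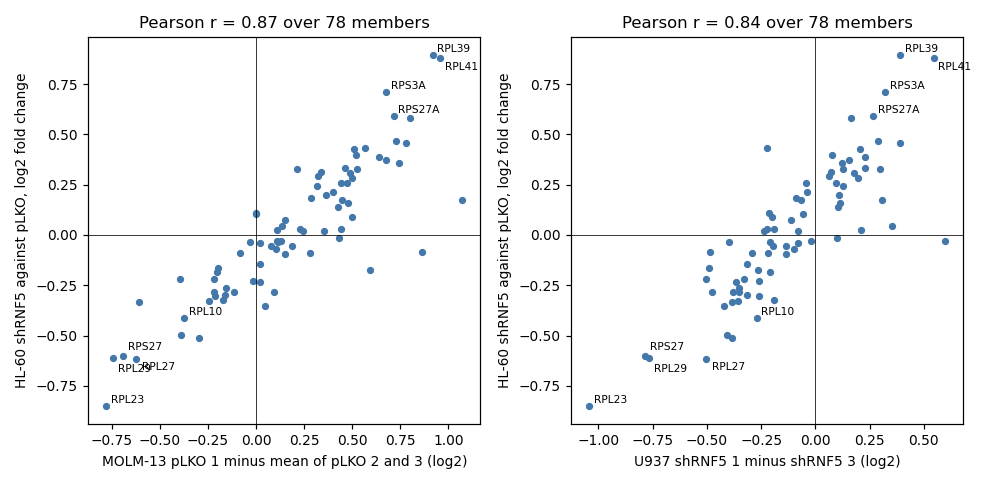
HL-60 log2 fold change of each member (y axis) against a difference between replicates of 1 group in another line (x axis, log2), MOLM-13 pLKO on the left and U937 shRNF5 on the right. RPL39 and RPL41 are at the upper right and RPL23 at the lower left of both panels (r of 0.87 and 0.84 over 78 members).

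The weight of a member on the order was set beside 5 properties. Spearman's rho over the 78 members was 0.01 with transcript length, -0.22 with GC content, 0.24 with the length of the pyrimidine run, 0.03 with the number of listed pseudogenes and 0.13 with the mean level. Over other genes, the deviation of a library ran with transcript length at rho of -0.35 in MOLM-13 pLKO 1 and -0.36 in HL-60 shRNF5 3, but at 0.05 in U937 pLKO 2, which had a similar score. With GC content the rho was 0.37 in MOLM-13 pLKO 1, 0.17 in U937 pLKO 2 and 0.27 in HL-60 shRNF5 3, the highest score of each line. In the library with the lowest score it was 0.06 (MOLM-13 shRNF5 2), -0.16 (U937 shRNF5 3) and 0.28 (HL-60 pLKO 2). The part of transcript length or GC content in the order was not tested.

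The other genes of the translation machinery did not move alike in all lines. Of 73 measured ribosome biogenesis genes, which make and process ribosomal RNA, 16 rose (21.9%, beside 6.92% of all genes) and 2 fell (2.74%, beside 8.74%) in U937, at a median of 0.52, where ribosomal protein genes lay low. In HL-60 0 rose (beside 13.6%) and 22 fell (30.1%, beside 12.3%), at a median of -0.26. In MOLM-13 0 rose (beside 1.03%) and 3 fell (4.11%, beside 1.01%), at a median of -0.15. The 12 snoRNA host and other noncoding RNAs with TOP tracts included 8 that fell in U937 (66.7%, beside 8.74%, median -1.02). In MOLM-13 and HL-60 0 of them fell and 1 rose in each (8.33%, beside 1.03% and 13.6%).

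Other TOP mRNAs, which encode elongation and initiation factors, had 1 of 22 falling in U937 (4.55%, beside 8.74% of all genes, median -0.18), 1 falling in MOLM-13 (beside 1.01%) and 0 called in HL-60 (beside 13.6% rising and 12.3% falling, median 0.00). Of 36 translation initiation factors, 7 rose (19.4%, beside 6.92%) and 1 fell (2.78%, beside 8.74%) in U937, and 1 fell in MOLM-13 (2.78%, beside 1.01%). In HL-60 3 rose (8.33%, beside 13.6%) and 2 fell (5.56%, beside 12.3%), both below the shares over all genes. Of 21 measured TOP and mTORC1 regulators, 1 rose (4.76%, beside 6.92%) and 2 fell (9.52%, beside 8.74%) in U937, near the shares over all genes. In MOLM-13 1 of them fell (4.76%, beside 1.01%). In HL-60 2 of them rose (9.52%, beside 13.6%) and 4 fell (19.0%, beside 12.3%). Ribosomal protein chaperones and importers had 1 of 15 rising in U937 (6.67%, beside 6.92%), and 1 rising (6.67%, beside 13.6%) and 2 falling (13.3%, beside 12.3%) in HL-60.

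Of the measured ribosomal proteins and paralogs outside the symbols used here, the single call was a fall of RPS27L in HL-60. RPS27L, a paralog of RPS27 known as a p53 target, had 699, 663 and 510 reads in HL-60 pLKO and 480, 374 and 402 in shRNF5, which did not overlap (log2 fold change -0.57 ± 0.16, limma adjusted p = 0.0337). It is named because it was the only call, after its values were seen. FAU, whose product ends in RPS30, and GNB2L1 (RACK1) passed in no line.

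The make-up of the set also differed between the lines before any knockdown, and here one chromosome stood out. In pLKO libraries RPS20, the most shifted member between MOLM-13 and HL-60, held 1.42% ± 0.07 (SD, n = 3) of the member sum in MOLM-13 and 1.65% ± 0.33 (n = 2) in U937, but 0.419% ± 0.017 (n = 3) in HL-60. RPL8 held 2.86% ± 0.23, 2.60% ± 0.08 and 0.974% ± 0.031. RPL7 held 2.59% ± 0.09, 2.53% ± 0.04 and 0.856% ± 0.047, and RPL30 held 1.59% ± 0.27, 1.33% ± 0.02 and 0.709% ± 0.019. These are the 4 members on chromosome 8, and for each of them every MOLM-13 and U937 library lay above every HL-60 library. The same separation was seen for members on other chromosomes, among them RPL13, RPL41 and RPS6, so it is not particular to chromosome 8.

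Their ratio of MOLM-13 to HL-60 ran from 2.25-fold to 3.39-fold, on the log2 scale 1.17 to 1.76, and none of the 74 other members exceeded 0.94. For U937 to HL-60 it ran from 0.91 to 1.98 on the log2 scale, and 7 of the other 74 exceeded the lowest of the 4, led by RPL39L at 2.09 and RPL39 at 1.76. The 350 other genes of chromosome 8 above 0 in all lines had a median of 1.36 (MOLM-13 over HL-60) and 1.11 (U937 over HL-60) relative to the median of all genes, the highest of the 23 chromosomes in both comparisons. The next chromosomes were at 0.46 and 0.48. Ratios to the member sum do not depend on the scaling of a line, and no test was run, since the lines were normalized separately and the pattern was noticed in the values.

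**Figure D5:**
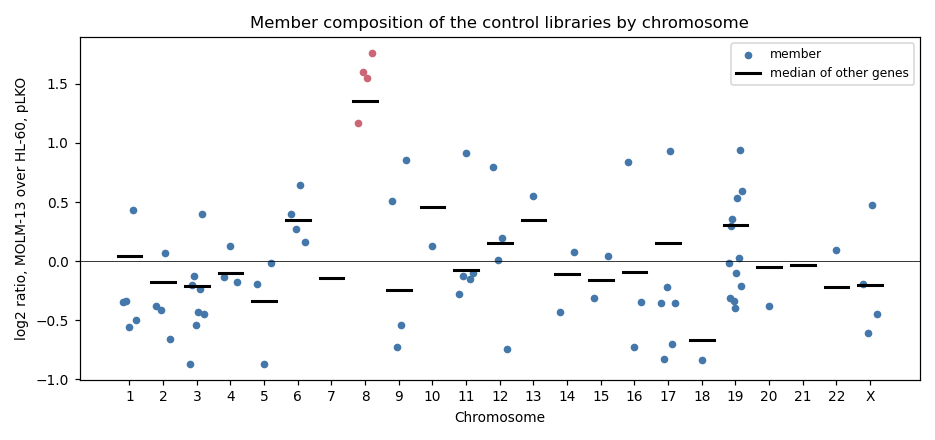
Log2 ratio of MOLM-13 to HL-60 in pLKO libraries by chromosome, for each member relative to the member sum (points, chromosome 8 in red) and as the median of the other genes relative to all genes (black bars). The 4 members on chromosome 8 lie from 1.17 to 1.76, above all other members.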

How the data were processed

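Libraries of 3 lines took their group from the construct in the labels. Alignment by the authors used STAR on hg19, counting used featureCounts, and normalization used edgeR as run by SARTools. The labels name a 3′ tag library kit and the study's methods a directional poly(A) kit, and whether counting used strand is not stated. The deposited values are a score: counts that the authors normalized within each line and rounded to whole numbers, with filtered genes listed at 0. They sum to between 15988450 and 25835131 per library. The spacing of the rounded values put 11 libraries at 9700000 to 21400000 counted reads. It did not resolve the other 4 (both MOLM-13 shRNF5, U937 shRNF5 1 and HL-60 pLKO 2), whose values were spaced too finely, so their depth is unknown. Depth limits low members such as RPL39L most, and no counting interval is given because the values are not counts.

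Values were analysed as log2(value + 1) with limma 3.58.1 in R 4.3.3, with moderated variances and a trend, line by line over genes that at least 1 library of that line listed above 0. A call needed an adjusted p (Benjamini-Hochberg) under 0.1 and a log2 fold change beyond 0.4 in size, and the fold understates changes of low genes. Differences between lines came from one fit of 6 group means. The procedure was tested on simulated data with known changes, in which genes varied independently. That test cannot show how often calls are false among members that vary together. Members and lists were chosen with earlier results of these data known. The named genes are the 4 largest called rises and falls and the 2 highest and lowest members of each line, those called in at least 2 lines, and a set chosen for its known roles, and others are named where a count or end of an order needs them. Alternatives included thresholds, pseudocounts, scalings, a length correction, a replicate block and leaving out each library. Transcripts and start windows came from GENCODE on GRCh37, the build of hg19, and a reference transcript was found for 14540 of 14906 genes. No 2 libraries were identical. Same-numbered libraries were not paired, since the labels give no shared batch and their deviations did not correlate in every HL-60 pair, or in MOLM-13 by the labels' numbers. The file names number the MOLM-13 shRNF5 libraries differently, and by those numbers both MOLM-13 pairs correlated. The 2 MOLM-13 shRNF5 libraries were centred on their mean, so their deviations mirror each other and the labels' and file-name numbers give no separate evidence. The authors' own comparisons were not used. Some single genes are not reported here.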

Additional observations from a re-analysis of the deposited data

Results flagged for a closer look

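Flagged were members whose response to knockdown differed between lines by the test of the difference itself (limma, adjusted p under 0.1 over 11072 genes), given as the log2 fold change in the first line minus that in the second. No group had enough libraries to look for single outlying samples.

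Between U937 and HL-60, 33 members differed: 27 (34.6%) were lower in U937, beside 18.1% of all genes, and 6 (7.69%) were higher, beside 19.1%. Of the named ones, those lower in U937 were RPL39 (-2.11), RPS3A (-1.69), RPL41 (-1.67), RPL13A (-1.65), RPS14 (-1.49), RPS27A (-1.42), RPS20 (-1.39), RPS19 (-1.25), RPS6 (-0.97) and RPL22 (-0.68). Those higher in U937 were RPL23 (1.29), RPS27 (1.21), RPL27 (1.06) and RPL10 (0.59). Between MOLM-13 and HL-60, 6 members differed: RPL39 (-1.53), RPL41 (-1.50), RPS3A (-1.14) and RPS27A (-1.03) were lower in MOLM-13, and RPL23 (1.37) and RPL10 (0.68) were higher. The shares lower and higher were 5.13% and 2.56%, beside 5.09% and 3.72% of all genes. Between MOLM-13 and U937, 1 member differed, RPS20 (0.84), higher in MOLM-13 (1.28%, beside 6.95% of all genes). None was lower, beside 8.48%. In both comparisons with MOLM-13 the shares were near or below those over all genes. The score on the common order differed between replicates of MOLM-13 pLKO (-0.97 to 2.97) and of U937 pLKO (0.26 and 2.90), and its part in these differences was not tested.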

How the results depend on the processing

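The alternatives below changed 1 choice at a time. The U937 count of 13 called members became 5 at an adjusted p under 0.05, 0 without the variance trend, 8 with the length correction (which moved the median to -0.24) and 26 in one fit over all libraries. The HL-60 count of 11 became 7, 6 and 4 with the stricter p, without the trend and in one fit. Of the 33 differences between U937 and HL-60, 20 were counted with the replicate block. The 6 between MOLM-13 and HL-60 became 13 with the length correction (12 of them higher in MOLM-13, against 2 before), and 22 with the block. The 1 between MOLM-13 and U937 became 2 with members left out of the scaling, 4 with the length correction and 0 with the block. The replicate block also gave 5 calls in MOLM-13 (1 rise and 4 falls) against 0. No paired analysis was possible in U937 alone because its groups share only 1 replicate number. Libraries with the same number in the labels deviated together at r of -0.13 and -0.45 in MOLM-13 and at 0.39, 0.12 and -0.05 in HL-60. The file names number the MOLM-13 shRNF5 libraries 2 and 3 where the labels have 1 and 2, and by those numbers the MOLM-13 pairs were at 0.45 and 0.27. With 2 shRNF5 libraries centred on their mean, the -0.45 and 0.45 are the same value with its sign turned. A replicate block by file-name number, added after seeing the data, gave 0 calls in MOLM-13. By it 33 members differed between U937 and HL-60, 10 between MOLM-13 and HL-60 (6 of them higher in MOLM-13) and 2 between MOLM-13 and U937. It turned the sign of RPL22 (0.061) and RPL5 (-0.0055) in MOLM-13. The block results for MOLM-13 thus depend on which numbers are right, which the sources used here do not settle. The cause of these changes was not tested.

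Without single libraries the counts ran from 0 to 0 in MOLM-13, 0 to 6 in U937 and 6 to 18 in HL-60. The medians ran from -0.20 to -0.01, from -0.55 to -0.33 and from -0.13 to 0.13. Differences in share, in percentage points, ran from -0.62 to 0.10, from -1.75 to -1.03 and from -0.47 to 0.94, around -0.36, -1.39 and 0.28. The counts between lines ran from 0 to 6 (MOLM-13 and U937), 0 to 10 (MOLM-13 and HL-60) and 20 to 37 (U937 and HL-60). Where 1 library was left in a U937 group, it was assumed to vary like the others. RPL23 and RPL39 in HL-60 kept their call in all 17 alternatives, and the U937 calls each kept it in 6 to 10 of 14.

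No called member reversed. Among values that had not passed, those turning sign with the length correction were RPL11 (0.16) and RPL36AL (0.12) in U937. Without 1 library, values that turned sign ran from -0.20 to 0.061 for RPL22 and -0.030 to 0.076 for RPL5 in MOLM-13. In U937 they ran from -0.074 to 0.96 for RPL27, -0.10 to 0.98 for RPL23, -0.24 to 0.61 for RPL29, -0.43 to 0.92 for RPL39L, -0.35 to 0.27 for RPL11 and -0.35 to 0.14 for RPL36AL. In HL-60 they ran from -0.088 to 0.21 for RPL22, -0.026 to 0.24 for RPLP0 and -0.19 to 0.013 for RPL5.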

Other observations

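RPL10A, a large subunit protein named here after its values were seen, varied more between the U937 replicates than within MOLM-13 or HL-60. It was read at 19718 and 8533 in U937 pLKO 2 and 3 and at 10648 and 7028 in U937 shRNF5 1 and 3. Its values ran from 21552 to 25262 over the 5 MOLM-13 libraries and from 7843 to 11857 over the 6 HL-60 libraries.

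RPL39 and RPL39L, a paralog best known from germ cells, were the members with the highest ratio of U937 to HL-60 in pLKO libraries apart from RPS20, at 1.76 and 2.09 on the log2 scale relative to the member sum. RPL39L was read at 88 and 225 in U937 pLKO, at 47, 60 and 52 in HL-60 pLKO and at 108, 139 and 146 in MOLM-13 pLKO. The ratio of RPL39 to RPS27 in a library was 0.20, 0.081 and 0.054 in MOLM-13 pLKO, 0.77 and 0.40 in U937 pLKO, and 0.092, 0.076 and 0.11 in HL-60 pLKO. No test was run on these levels.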
